A study of Mus musculus with 4 samples.

Results

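The nuclei described here are the dermal papilla nuclei of intact mouse back skin, measured by single-nucleus RNA sequencing. Members were nuclei of the 2 unwounded libraries with at least 200 genes detected, at most 5% mitochondrial counts, and at least 1 unique molecular identifier (UMI, 1 counted RNA molecule) for at least 3 of 10 genes, called the gate: Rspo3, Lef1, Slc26a7, Pappa2, Dkk2, Slc12a1, Prlr, Gpc5, Grid1 and Hhip. This rule found 108 nuclei among the 23448 nuclei of the whole series that passed the same filters, 71 of 6963 in unwounded mouse 1 and 37 of 9770 in unwounded mouse 2. Back skin came from wild type C57BL/6 mice aged 8 weeks, with 2 unwounded mice and 2 mice with full-thickness excisional wounds taken 1 day later, and 1 library per mouse. The labels give the cells as mixed skin cells, so nothing was sorted for hair follicle tissue. The members carry no genetic label of the papilla, and their identity rests on RNA alone.

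The dermal papilla is a small cluster of specialised fibroblasts at the base of each hair follicle. In growing follicles it is surrounded by the epithelial matrix that makes the hair shaft. The papilla signals to the follicle epithelium through WNT agonists such as R-spondins, through FGF7 and FGF10, and through BMPs and their inhibitors. It receives WNT and hedgehog signals in return. In the mouse its signalling changes between the growing and resting phases of the hair cycle, and some of its classical markers, among them Corin and the BMP inhibitor Sostdc1, are known to vary with follicle type or hair cycle stage.

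The gated share was 1.02% in mouse 1 (exact Clopper-Pearson 95% interval 0.797 to 1.28%) and 0.379% in mouse 2 (0.267 to 0.522%). These intervals cover counting error only and do not overlap. The median UMI count per nucleus also differed, at 906 over all kept nuclei of mouse 1 and 472 in mouse 2. Members were deeper than their libraries, with medians of 1278 and 958 UMIs and ranges of 486 to 5430 and 449 to 5231. After each nucleus was thinned to 500 UMIs, with shallower nuclei left out, the shares were 0.809% (52 of 6430 nuclei, 0.605 to 1.06%) and 0.574% (26 of 4530, 0.375 to 0.840%). At this equal depth the intervals of the mice overlapped. The members held 110132 and 47680 UMIs in all, so a count of 0 in the members allows a level of up to 27.2 CPM (counts scaled to 1000000 per set) in mouse 1 and 62.9 CPM in mouse 2.

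The number of gate genes per nucleus had a shoulder rather than a steady fall. In mouse 1, 5851 nuclei had none of the 10 genes, 977 had 1, 64 had 2 and 12 had 3, while 16 had 6 and 9 had 7. Mouse 2 had 67 nuclei with 2, 8 with 3, 3 with 4, 14 with 5 and 8 with 7. As a description of what chose the members, Gpc5 was detected in 85.9% and 89.2% of them, Dkk2 in 84.5% and 86.5%, Prlr in 84.5% and 78.4%, Lef1 in 64.8% and 62.2%, Slc26a7 in 53.5% and 24.3%, and Rspo3 in 16.9% and 16.2%. The members just inside the threshold were weaker than the rest. Over both mice, the 26 dermal papilla markers that were not gate genes summed to 2428 CPM in the 20 nuclei with 3 gate genes, 6070 CPM in the 43 with 4 or 5, and 8505 CPM in the 45 with 6 or more. Just outside it, they summed to 1021 CPM in the 131 nuclei with 2 gate genes, beside 823 CPM in the 14583 nuclei with none.

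**Figure D1:**
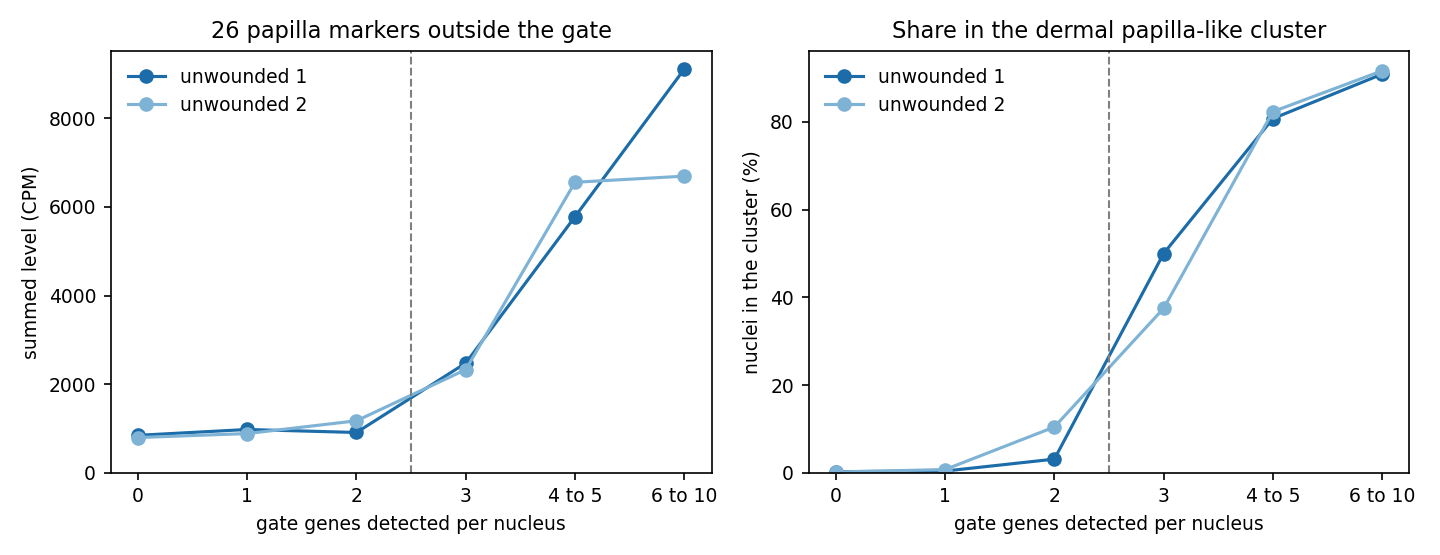
Left, summed level in CPM of 26 dermal papilla markers outside the gate, and right, the percentage of nuclei in the dermal papilla-like cluster, against the number of gate genes detected per nucleus; 1 line per unwounded mouse, and the dashed line marks the threshold of 3. Both measures stay low up to 2 gate genes and rise from 3 onward in both mice.

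The label was checked against markers that the gate did not use. The 26 markers summed to 7055 CPM in the members of mouse 1 and 5852 CPM in those of mouse 2, against 869 and 811 CPM in ungated nuclei, ratios of 8.12 and 7.21. Of the 26, 20 were detected in mouse 1 and 18 in mouse 2. Trps1 alone made up the larger part of the members' sum in both mice. Sums without Trps1 were not taken, here or for the gate classes, clusters and wounded libraries. Trps1, a GATA-type transcriptional repressor needed for hair growth, had at least 1 UMI in 58 of 71 and 30 of 37 members. Of macrophage-like nuclei, 37.5% and 28.8% had a Trps1 UMI too, and how much of that share was free RNA was not tested. Fgf10 was found in 24 of 71 and 12 of 37 members, against 0 of 528 and 3 of 612 macrophage-like nuclei. Bmp4 was found in 21 and 6 members, against 4 and 4 of those nuclei. The macrophage-like nuclei had lower medians, of 688 and 482.5 UMIs.

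Several classical papilla markers were rare or absent. Sox2, Sox18, Hey2 and Sostdc1 were at 0 in the members of both mice. Corin was seen in 3 and 1 members, Alx4 in 8 and 1, Wif1, a secreted WNT inhibitor, in 3 and 1, and Crabp1 in 5 and 0. A low level of these genes, below what a count of 0 allows, was not detectable at this depth.

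Clustering of all intact-skin nuclei, with the gate genes left out of the clustered genes, put 85 of the 108 members (57 and 28 by mouse) in 1 cluster of 137 nuclei. That cluster was called dermal papilla-like because 14 of its 17 testable markers stood at least 2-fold above the median cluster, among them Bmp4, Fgf7, Fgf10, Vcan, Notum, Rspo2 and Enpp2, a share of 82.4%. The next best list for that cluster was the Schwann cell list, with 71.4% of its markers past the same fold. At the coarser Leiden resolution of 0.5, the cluster that held the same number of members, 85, was left unnamed, with 6 of 7 dermal sheath and arrector pili markers past that fold (85.7%) and the same share of the pericyte and vascular smooth muscle list. The other 52 nuclei of the cluster were ungated. They were shallower, with a median of 734 UMIs, and the 26 markers summed to 2131 CPM in them. Of the remaining members, 10 lay in fibroblast-like clusters and 13 in other clusters, 4 of these macrophage-like. The 26 markers summed to 8174 CPM in the 85 members, 2257 CPM in the 10, 2189 CPM in the 13 and 836 CPM in ungated fibroblast-like nuclei. The label therefore held for most members, and 23 of the 108 were placed elsewhere.

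Markers of other cell types were also measured in the members. The 12 fibroblast markers summed to 6828 and 9501 CPM in the members, below the 12826 and 13014 CPM of ungated nuclei. Skeletal muscle markers, carried by the muscle layer under the skin, summed to 2134 and 671 CPM, against 6869 and 5518 CPM. Keratinocyte markers summed to 309 and 357 CPM against 533 and 859 CPM, and macrophage markers to 708 and 545 CPM against 1333 and 1333 CPM. Other lists lay nearer to the ungated nuclei, or above them in 1 mouse. Schwann cell markers summed to 163 and 168 CPM against 176 and 181 CPM, with 5 and 2 of 8 detected. Blood endothelial markers summed to 263 and 105 CPM against 195 and 225 CPM, sebocyte markers to 508 and 336 CPM against 448 and 670 CPM, and melanocyte markers to 1053 and 986 CPM against 1193 and 918 CPM. The defining muscle gene Myh2, the macrophage receptor Csf1r, the keratinocyte genes Krt10 and Krt1 and the smooth muscle genes Acta2 and Tagln were at 0 in the members of both mice. Other markers of these lists were detected, at 8 and 6 of 9 for muscle and 7 and 7 of 8 for macrophages. Keratinocyte markers were detected at 8 and 6 of 12, and dermal sheath and arrector pili markers at 3 and 2 of 8. A count of 0 allows 27.2 and 62.9 CPM, so single genes at 0 say little. Tests within mesenchyme left out the 13 members placed in other clusters, among them 4 macrophage-like and 2 keratinocyte-like. The tests therefore did not cover all members. Within mesenchyme, none of 8 muscle, 10 keratinocyte and 8 macrophage markers tested passed with edgeR or DESeq2, and unadjusted p-values under 0.05 with edgeR numbered 0, 1 and 1. Of 6 blood endothelial markers tested there, 1 was higher. This was Cyyr1, with 7 and 1 UMIs in the members, at 77.7 and 22.7 CPM against 4.15 and 5.10 CPM (3.45 ± 1.06, or 2.31 in mouse 2 alone), and its call was lost with DESeq2 and with no filter on low counts. The part of counts of these other cell types in any gene result was not tested.

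A pair of comparisons was made in the same pair of mice, each on UMI counts summed per mouse and set and with the gate genes removed before the fit. The first set all members against all 16625 ungated nuclei of intact skin and asked which genes mark them in whole skin. The second stayed within dermal mesenchyme, the fibroblast-like and dermal papilla-like clusters, and set 95 members (61 and 34) against 7245 ungated nuclei (3678 and 3567), to show what separates the members from other dermal fibroblasts. Because the members were chosen by 10 genes with earlier results of these data known, genes that vary with those 10 follow in part from the choice. The clusters of the second comparison were named by fibroblast and papilla markers. Differences in those markers within mesenchyme therefore follow in part from the naming too. With 2 mice, the p-values draw on the spread shared over genes and do not measure how far a difference repeated between the mice. They are also no independent test of identity.

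In the first comparison, 434 of 12935 genes tested passed an adjusted p of 0.05 (3.36%), 176 of them higher in the members (1.36%) and 258 lower (1.99%), with edgeR (quasi-likelihood test, p adjusted by Benjamini-Hochberg). In the second, 591 of 10431 passed (5.67%), 204 higher (1.96%) and 387 lower (3.71%). The median log2 fold change over all genes was -0.34 in the first and -0.26 in the second. Of the genes called higher, 151 were called in both comparisons, which is a share of 176 and of 204, and 182 of those called lower were. Every nucleus of the second comparison is also in the first, so this overlap is no independent repeat. The split of higher to lower depended on the scaling. With no scaling factors it was 216 to 116 in the first and 270 to 227 in the second, and with RLE size factors 192 to 176 in the first.

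Within mesenchyme, the gene with the smallest p was Col23a1, on chromosome 11 (51289920 to 51583918, GRCm38), which encodes a transmembrane collagen. It stood at 1521 and 1841 CPM in the members of mice 1 and 2, and at 36.2 and 46.5 CPM in ungated mesenchyme. The sets did not overlap, and the log2 fold change was 5.09 ± 0.23 (edgeR adjusted p = 9.9e-100). Here and elsewhere, the value after ± is an error of the edgeR fit. It is not the spread between the 2 mice and can be smaller than the difference between them. Spon1, on chromosome 7 (113765998 to 114043370), encodes F-spondin, a matrix protein known from axon guidance. It stood at 1044 and 841 CPM in the members against 7.72 and 11.1 CPM, a log2 fold change of 6.44 ± 0.32, or 5.85 in mouse 2 alone. At least 1 Spon1 UMI was found in 43 of 71 and 18 of 37 members, against 0.568% and 0.654% of macrophage-like nuclei.

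The 12 largest rises within mesenchyme, among genes of at least 50 CPM in the members, lay between 6.27 and 8.10 on the log2 scale. Chst8, a sulphotransferase that acts on N-acetylgalactosamine, had the largest, at 278 and 205 CPM in the members against 0.791 and 0.600 CPM (8.10 ± 0.79). Stac, an adaptor of voltage-gated calcium channels, stood at 500 and 523 CPM against 2.57 and 6.90 CPM. Both mice gave nearly equal member levels for Stac. Dcc and Unc5c, both receptors for netrins, were also among the 12. Dcc stood at 422 and 341 CPM against 2.37 and 4.50 CPM, and Unc5c at 511 and 68.2 CPM against 1.38 and 2.70 CPM. The Unc5c level thus rested mainly on mouse 1, and its log2 fold change fell from 7.04 to 4.41 without that mouse. Brinp3 and Scube1 behaved alike, at 4.27 and 4.63 without mouse 1 against 6.58 and 7.31 with both. The other members of the 12 were Spock1, a testican proteoglycan, the fucosyltransferase Fut9, the glycosyltransferase Mgat5b, the potassium channel subunit Kcnq3, and Csrnp3. The remaining spread between mice was 6.21 to 7.82 for Csrnp3, 5.40 to 7.20 for Kcnq3, 5.85 to 7.37 for Stac, 5.85 to 7.24 for Dcc and 5.85 to 6.87 for Fut9. Chst8, Dcc and Unc5c were so low in ungated mesenchyme that they passed the filter on low counts only through the members' sums. Such genes could be called higher but not lower. The same holds for some genes of the lists below, among them Notum, Prdm1, Hpse2 and Hs3st3a1, and for Alx4 and Scube3 against whole skin.

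**Figure D2:**
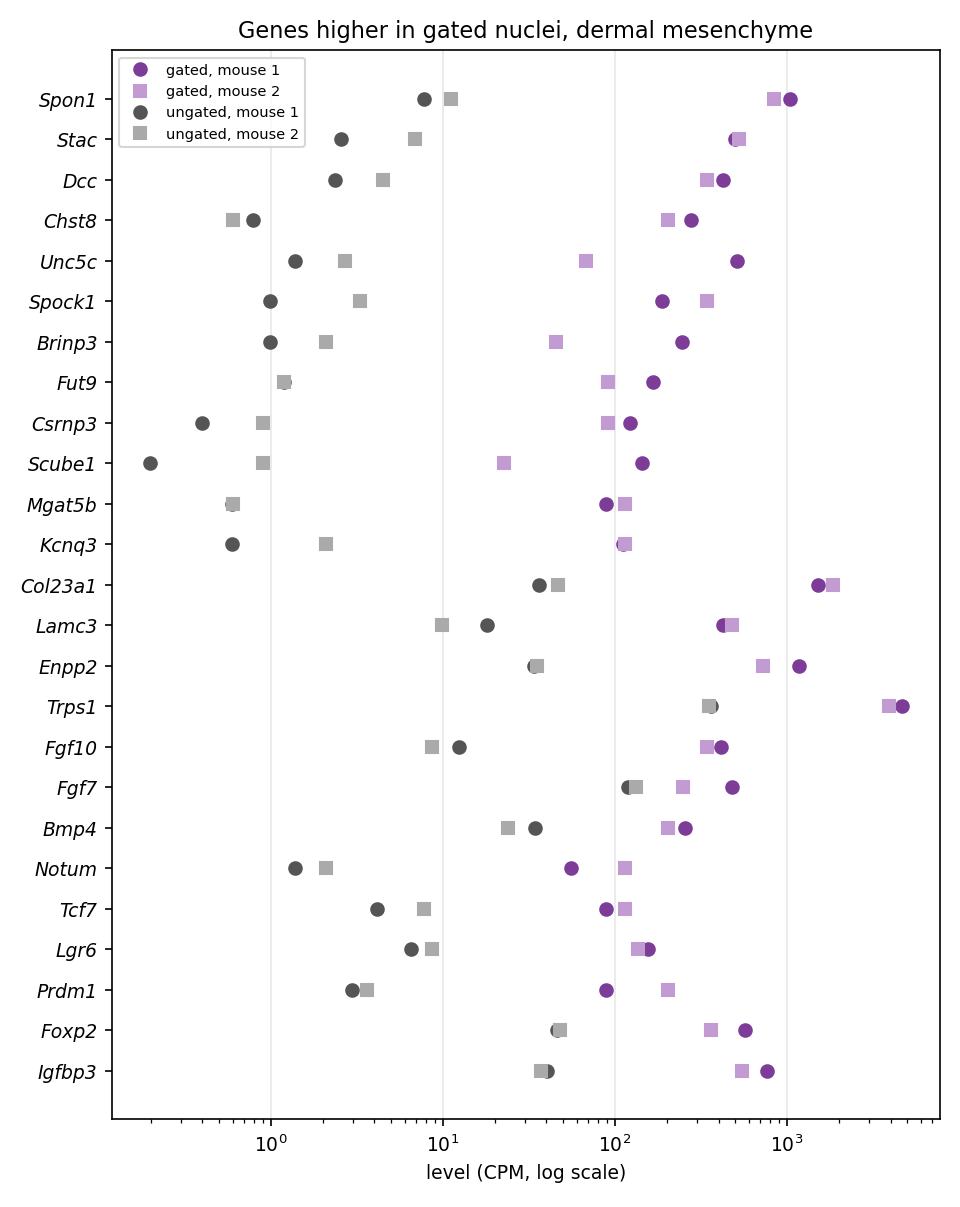
Level in CPM (log scale) of 25 genes called higher in gated nuclei within dermal mesenchyme; circles are mouse 1 and squares mouse 2, purple for gated and grey for ungated nuclei. For every gene drawn, both gated values lie above both ungated values, and Unc5c, Brinp3 and Scube1 show the widest gap between mice.

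The 250 bases before the start site were read for the genes called higher within mesenchyme, from RefSeq promoters on GRCm38.p6, of which 150 of 204 genes matched. They were searched on both strands for CTTTGA, the core letters read by TCF/LEF factors, the nuclear partners of the WNT pathway, and for GCCNNNGGC, the core read by AP-2 factors. CTTTGA was found in 19 of the 150 (12.7%), against 14.1% of all 27025 promoters, and GCCNNNGGC in 26 (17.3%), against 13.6%. Both shares lay near the share of all promoters. Promoters of 3 of the genes are shown, 1 with each motif and 1 with neither, in the gene's own direction, with motif matches in capitals: Csrnp3 at chr2:65845517-65845766 on the plus strand, Scube1 at chr15:83725040-83725289 on the minus strand, and Fgf10 at chr13:118714449-118714698 on the plus strand.
Csrnp3: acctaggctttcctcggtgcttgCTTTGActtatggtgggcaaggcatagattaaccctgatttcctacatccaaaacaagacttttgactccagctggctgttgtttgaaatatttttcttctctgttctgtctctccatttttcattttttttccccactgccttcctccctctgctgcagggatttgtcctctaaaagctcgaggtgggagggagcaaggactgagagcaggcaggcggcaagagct
Scube1: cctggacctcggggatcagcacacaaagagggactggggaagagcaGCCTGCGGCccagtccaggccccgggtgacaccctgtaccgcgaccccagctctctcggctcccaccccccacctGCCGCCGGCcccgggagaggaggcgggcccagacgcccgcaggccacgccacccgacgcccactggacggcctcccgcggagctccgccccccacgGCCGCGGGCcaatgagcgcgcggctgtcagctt
Fgf10: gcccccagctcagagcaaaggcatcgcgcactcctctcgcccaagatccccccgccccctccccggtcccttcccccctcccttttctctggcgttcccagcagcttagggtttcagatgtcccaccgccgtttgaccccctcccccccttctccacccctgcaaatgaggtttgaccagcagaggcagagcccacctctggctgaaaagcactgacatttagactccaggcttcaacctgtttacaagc

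Growth factors that the papilla is known to send to the follicle epithelium, Fgf10, Fgf7 and Bmp4, were higher in the members. Of 8 FGF ligands tested within mesenchyme, 4 were called higher and 1 lower, with a median log2 fold change of 1.46. Over all genes tested there, 1.96% were called higher and 3.71% lower, the background for each list below. Fgf10 stood at 411 and 341 CPM in the members against 12.5 and 8.70 CPM (4.89 ± 0.48). Fgf7, also called keratinocyte growth factor, stood at 477 and 250 CPM against 119 and 132 CPM (1.38 ± 0.30). Its difference was 0.59 in mouse 2 alone, and its call was lost with DESeq2. Fgf2 stood at 233 and 182 CPM against 32.6 and 36.9 CPM. Fgf14, an intracellular FGF that acts on sodium channels, stood at 233 and 227 CPM against 8.11 and 16.5 CPM (4.11, or 3.45 in mouse 2 alone). Fgf12, of the same intracellular group, was lower, at 22.2 and 114 CPM against 159 and 209 CPM (-1.98, or -1.13 and -2.71 in mouse 2 and mouse 1 alone), and its call was lost with DESeq2.

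Of 7 FGF receptors and feedback genes tested, 3 were higher and none lower, namely the receptor Fgfr1, the feedback inhibitor Spred2 and the ETS factor Etv5. Fgfr1 stood at 378 and 455 CPM against 170 and 146 CPM. Spred2 stood at 322 and 295 CPM against 114 and 112 CPM. For both genes the members of each mouse were higher than either ungated set, and with DESeq2 none of the 3 calls remained.

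Among BMP ligands, 1 of 4 tested was higher, beside 1.96% of all genes. Bmp4 stood at 255 and 205 CPM in the members against 34.2 and 24.0 CPM (2.73 ± 0.47), with nearly the same difference in each mouse. Bmp7 passed only in the comparison with whole skin, at 81.7 and 252 CPM against 39.1 and 33.8 CPM (1.73 ± 0.51, or 2.60 and 1.00 in mouse 2 and mouse 1 alone), and that call was lost with DESeq2 and among nuclei of at least 1000 UMIs. Whether the 2 comparisons differed for Bmp7 was not tested. None of 13 BMP receptors, SMADs and targets passed with edgeR or DESeq2, and 1, Acvr1, had an unadjusted p under 0.05 with edgeR. The BMP inhibitors Fstl1 and Smoc2 were lower. Fstl1 stood at 155 and 386 CPM against 607 and 527 CPM, with log2 differences of -2.11 and -0.80 in mouse 1 and mouse 2. Smoc2 stood at 144 and 68.2 CPM against 288 and 250 CPM. With DESeq2 neither of these calls remained. Inhba, which encodes a subunit of activin A, was the higher gene of the TGF-beta and activin list, where 1 of 14 was higher and 1, Tgfbr3, lower. It stood at 99.9 and 45.5 CPM against 5.34 and 4.20 CPM (3.78 ± 0.94).

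Over the 4 WNT lists, 5 of 38 genes tested within mesenchyme were called, 3 higher and 2 lower (13.2%, beside 5.67% of all genes). The gate genes Lef1, Dkk2 and Rspo3 are not counted here. None of 4 WNT ligands tested passed with edgeR or DESeq2, and 2 of them, Wnt2 and Wnt6, had an unadjusted p under 0.05 with edgeR. Notum, an extracellular enzyme that inactivates WNT proteins, was the 1 higher gene of 7 WNT inhibitors, at 55.5 and 114 CPM against 1.38 and 2.10 CPM (5.22 ± 1.09). Tcf7, a sister gene of Lef1, was the 1 higher gene of 11 nuclear effectors and feedback targets, at 88.8 and 114 CPM against 4.15 and 7.80 CPM (3.89 ± 0.87). The common WNT target Axin2 did not pass, at 66.6 and 114 CPM against 41.3 and 41.1 CPM (adjusted p = 0.74). The members carried 6 and 5 Axin2 UMIs, so a modest difference was not detectable at this depth.

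Receptors for R-spondins moved in opposite directions. Lgr6 stood at 155 and 136 CPM in the members against 6.53 and 8.70 CPM (4.07 ± 0.73). Lgr5 stood at 99.9 and 22.7 CPM against 363 and 287 CPM (-2.44 ± 0.40, or -3.47 in mouse 2 alone). The sets did not overlap for either gene. The third call among 16 receptors was Ror1, a receptor for non-canonical WNT signals, at 200 and 205 CPM against 326 and 362 CPM. The Ror1 call was lost with RLE size factors, no scaling factors, DESeq2 and several other settings.

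**Figure D3:**
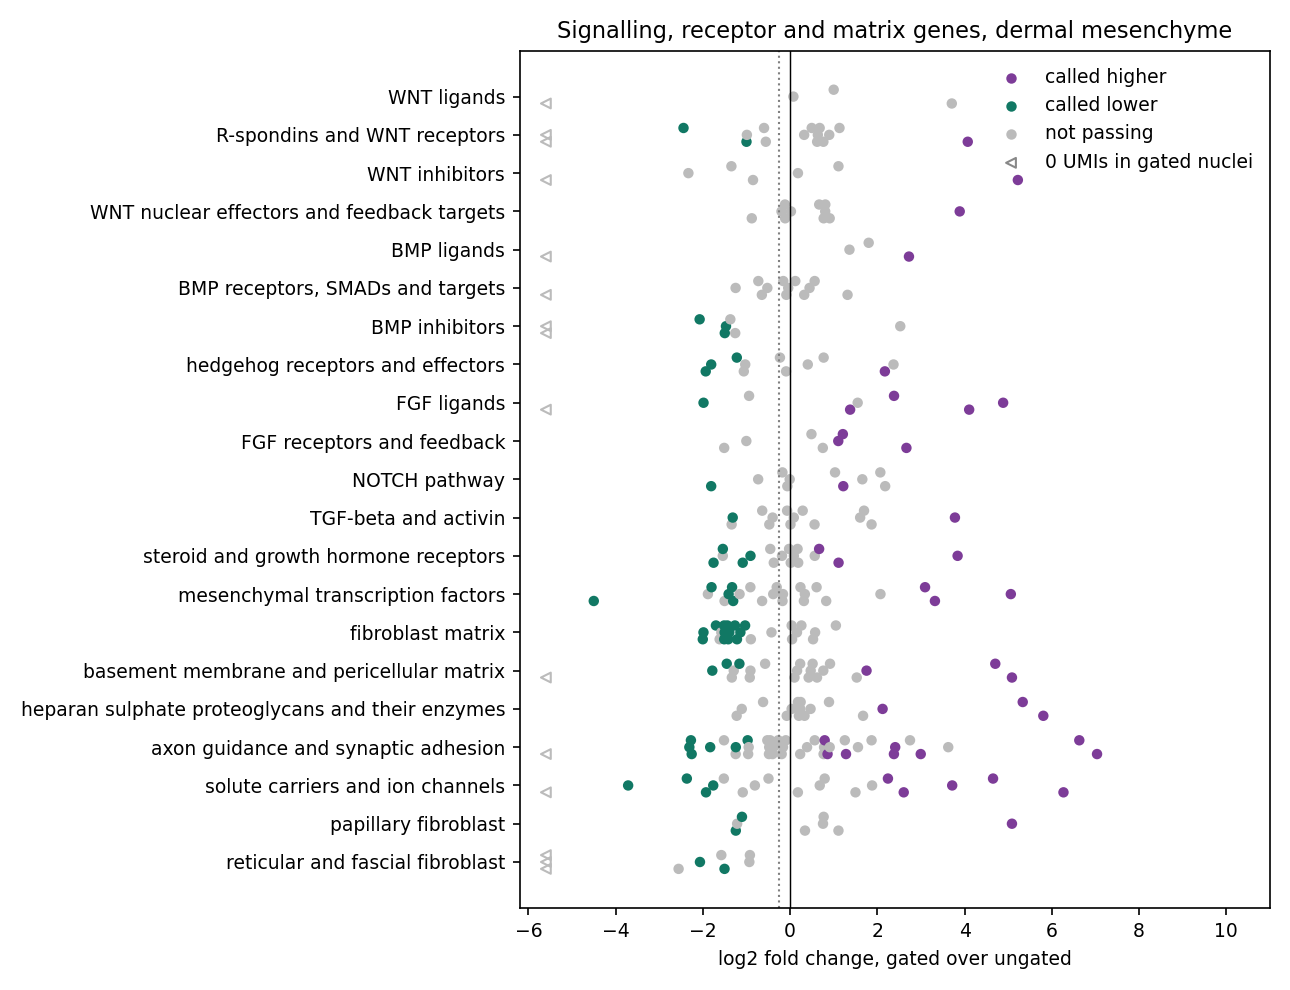
Log2 fold change within dermal mesenchyme, gated over ungated, of each tested member of 21 pathway lists; purple and green points passed the test, grey points did not, open triangles at the left edge stand for genes with 0 UMIs in gated nuclei and have no value, the solid line is 0 and the dotted line the median of all genes (-0.26). The fibroblast matrix row is mostly green and the FGF ligand row holds 4 purple points.

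Hedgehog signals from the epithelium act on the papilla through the receptor Ptch1, which is also a target of the pathway. Ptch1 was the 1 higher gene of 11 hedgehog genes tested, at 111 and 159 CPM against 25.9 and 21.3 CPM (2.17 ± 0.61). That call was lost with at least 4 gate genes, with at least 1000 UMIs and with DESeq2. The co-receptors Cdon and Boc and the ligand-release protein Disp1 were lower. Cdon stood at 99.9 and 68.2 CPM against 272 and 313 CPM. Disp1 stood at 66.6 and 68.2 CPM against 199 and 200 CPM, and Boc at 111 and 136 CPM against 261 and 202 CPM, with all 3 calls lost with DESeq2 and that of Boc also with no scaling factors. Gli2, a transcription factor of the pathway, passed only against whole skin, at 254 and 168 CPM against 86.8 and 85.4 CPM (1.16 ± 0.35), and was lost under 4 settings.

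The bulk collagens of the dermis were lower in the members. Of 24 fibroblast matrix genes tested within mesenchyme, 13 were lower and none higher, with a median log2 fold change of -1.24, beside -0.26 for all genes. With no scaling factors 13 were lower and 1 higher, and with DESeq2 3 were lower. Against all ungated nuclei of intact skin, 8 of the 24 were lower and 1 higher. Within mesenchyme, 7193 ungated nuclei lay in clusters named fibroblast-like by a marker list that includes Col1a1, Col1a2, Col3a1, Dcn and Fbn1. The lower level of these genes in the members there follows in part from that naming. Col1a2 stood at 1921 and 3000 CPM in the members against 5452 and 5297 CPM (-1.44 ± 0.20), and Col1a1 at 1399 and 2114 CPM against 3488 and 4015 CPM (-1.39 ± 0.20). Col3a1 stood at 1577 and 1523 CPM against 3124 and 2566 CPM. Dcn, the collagen-binding proteoglycan decorin, stood at 178 and 250 CPM against 730 and 617 CPM (-1.99 ± 0.29), and the microfibril gene Fbn1 at 688 and 705 CPM against 1481 and 1301 CPM. For each of these genes both member values lay below both ungated values, though not all of their calls remained with DESeq2. Vcan, a proteoglycan often used to mark the papilla, did not pass, at 233 and 136 CPM against 118 and 112 CPM (adjusted p = 0.67).

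Basement membrane and pericellular matrix differed by gene. Of 22 such genes tested, 3 were higher, namely Col23a1, Lamc3 and Col7a1, and 3 lower, namely Col15a1, Lamc1 and Col4a3. Over all genes the shares were 1.96% higher and 3.71% lower. Lamc3, which encodes the laminin gamma 3 chain, stood at 422 and 477 CPM against 18 and 9.90 CPM (4.71 ± 0.42). Col7a1, the anchoring fibril collagen, stood at 111 and 159 CPM against 25.7 and 42.6 CPM, and its call was lost under 5 other settings, among them the members of the dermal papilla-like cluster alone. Among 16 genes of heparan sulphate proteoglycans and their enzymes, 3 were higher and none lower. Hpse2, the heparanase-like protein that binds heparan sulphate, stood at 244 and 90.9 CPM against 2.77 and 2.70 CPM (5.81 ± 0.74, or 4.77 in mouse 2 alone). The sulphotransferase Hs3st3a1 stood at 44.4 and 68.2 CPM against 0.594 and 1.80 CPM (5.34, or 5.98 in mouse 1 alone), a call lost with no filter on low counts, and the third was Ndst3.

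**Figure D4:**
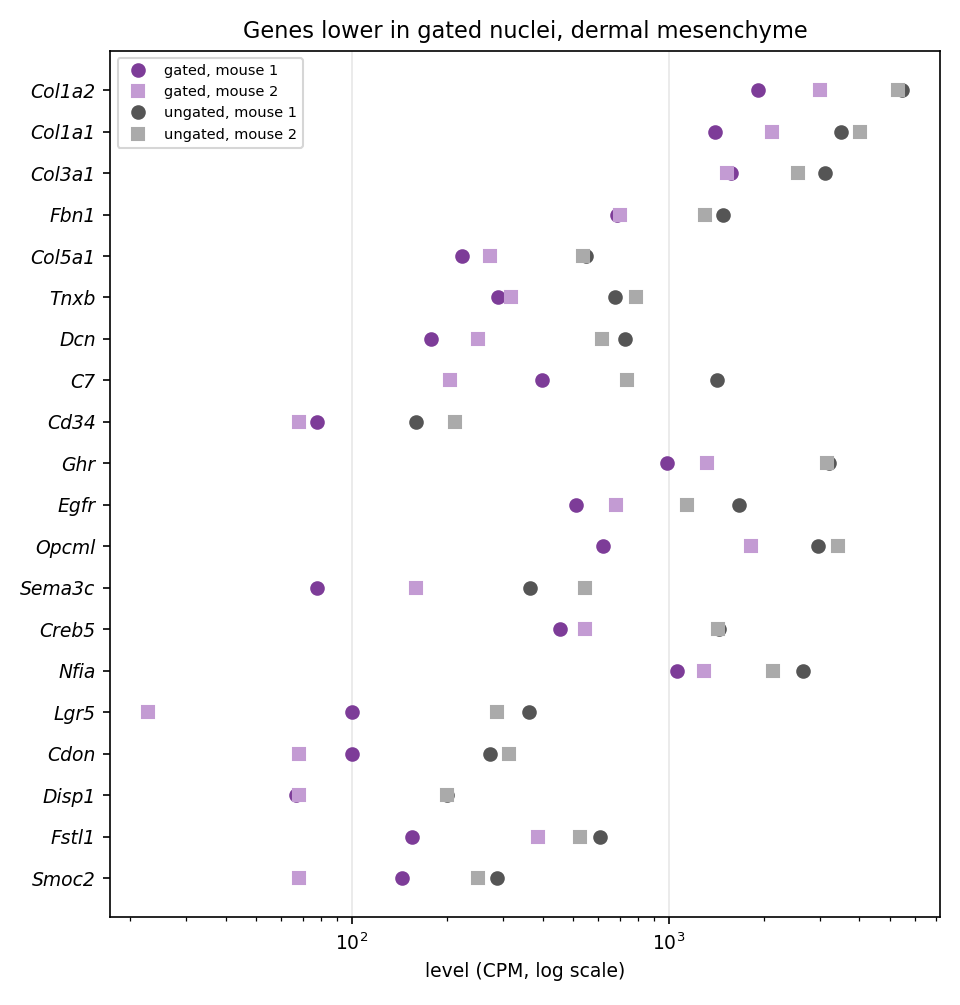
Level in CPM (log scale) of 20 genes called lower in gated nuclei within dermal mesenchyme; circles are mouse 1 and squares mouse 2, purple for gated and grey for ungated nuclei. Both gated values lie below both ungated values for every gene drawn, with the collagens Col1a2, Col1a1 and Col3a1 at the top.

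Transcription factors of mesenchyme were divided, with 3 of 23 tested higher and 5 lower, beside 1.96% and 3.71% of all genes. Trps1 stood at 4663 and 3887 CPM in the members against 362 and 350 CPM (3.32 ± 0.20). Foxp2 stood at 566 and 364 CPM against 46.1 and 47.7 CPM (edgeR adjusted p = 1.5e-16). Prdm1, which encodes the repressor BLIMP1, known from papillary fibroblasts and the papilla, stood at 88.8 and 205 CPM against 2.97 and 3.6 CPM (5.06 ± 0.84). The lower genes were Creb5, Nfia, Nfib, Foxp1 and Ebf2. Creb5 stood at 455 and 546 CPM against 1445 and 1429 CPM (-1.80 ± 0.23), and Nfia at 1066 and 1296 CPM against 2660 and 2131 CPM (-1.30 ± 0.21). Ebf2 had 0 and 1 UMIs in the members, against 144 and 148 CPM in ungated mesenchyme (-4.50 ± 0.83, or -2.51 in mouse 2 alone). Its call was lost with DESeq2 and at Leiden resolution 2. Alx4, a homeobox gene listed as a papilla marker, could be tested only against whole skin, where it stood at 72.6 and 21.0 CPM against 0.347 and 0.719 CPM (6.45 ± 1.61, or 4.96 and 7.43 in mouse 2 and mouse 1 alone).

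Genes of hormone and growth factor reception, 17 tested, gave 3 higher and 4 lower calls, beside 1.96% and 3.71% of all genes. Igfbp3, which binds insulin-like growth factors, stood at 766 and 546 CPM against 40.4 and 37.2 CPM (3.84 ± 0.31). Nr3c1, the glucocorticoid receptor, stood at 910 and 455 CPM against 278 and 268 CPM (1.11 ± 0.24). Its difference was 0.41 in mouse 2 alone, and the call was lost with DESeq2. The third higher gene was Thrb. Ghr, the growth hormone receptor, stood at 988 and 1318 CPM against 3207 and 3152 CPM (-1.75 ± 0.21). Egfr stood at 511 and 682 CPM against 1665 and 1142 CPM (-1.54 ± 0.23). The oestrogen receptor gene Esr1 stood at 944 and 977 CPM against 1707 and 1282 CPM, and Insr, the insulin receptor, at 278 and 114 CPM against 412 and 338 CPM (-1.09, or -1.83 in mouse 2 alone). The last 2 calls were lost with no scaling factors and with DESeq2.

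Genes of axon guidance and synaptic adhesion, 40 tested, gave 8 higher and 6 lower calls, with a median of -0.13. Over all genes 1.96% were higher and 3.71% lower. Besides Dcc and Unc5c, the cell adhesion molecules Ncam1 and Ncam2 were higher. Ncam1 stood at 566 and 546 CPM against 60.9 and 55.5 CPM (edgeR adjusted p = 1.1e-19), and Ncam2 at 2198 and 932 CPM against 281 and 202 CPM (2.41 ± 0.21). Opcml, a GPI-anchored adhesion molecule, was lower, at 622 and 1818 CPM against 2960 and 3435 CPM (-1.83 ± 0.21, or -2.43 in mouse 1 alone). The guidance ligand Sema3c stood at 77.7 and 159 CPM against 366 and 543 CPM (-2.27 ± 0.35). Among 19 solute carriers and ion channels, 5 were higher and 4 lower. The calcium channel gene Cacna1c stood at 1488 and 1341 CPM against 190 and 201 CPM (2.61 ± 0.21), so that Cacna1c and the channel adaptor Stac were higher in both mice.

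A further pair of papilla markers passed within mesenchyme. Enpp2, which encodes autotaxin, the enzyme that makes lysophosphatidic acid, stood at 1177 and 727 CPM against 33.6 and 35.4 CPM (4.56 ± 0.27). Ndnf, a secreted neurotrophic factor, stood at 88.8 and 45.5 CPM against 3.56 and 5.10 CPM (3.90, or 3.04 and 4.49 in mouse 2 and mouse 1 alone). In all, 8 of the 14 papilla markers that could be tested were higher and none lower, of 26 in the list. Against all ungated nuclei of intact skin, with no choice by cluster, 9 of 19 tested were higher and none lower. A marker could be tested only if it was abundant enough in 1 of the sets, so the 14 and the 19 are not all markers. All 8 also belong to the markers that named the dermal papilla-like cluster, which supplied 85 of the members. Their rise within mesenchyme therefore follows in part from that naming. Cspg4, which encodes the NG2 proteoglycan known from pericytes, was also higher, at 133 and 22.7 CPM against 3.17 and 1.80 CPM (4.87 ± 0.95, or 3.74 in mouse 2 alone). The pericyte and vascular smooth muscle markers as a whole summed to 336 and 336 CPM in the members and to 347 and 348 CPM in ungated nuclei of whole skin. Of that list, 5 and 4 of 8 markers were detected in the members, and Kcnj8 and Higd1b were at 0 in both mice.

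A few genes known from deeper fibroblasts were lower. Of 9 reticular and fascial fibroblast genes tested, 2 were lower, C7 and Cd34, and none higher, beside 3.71% of all genes called lower. The complement gene C7 stood at 400 and 205 CPM against 1424 and 739 CPM (-2.07 ± 0.26). Cd34 stood at 77.7 and 68.2 CPM against 160 and 211 CPM, a call lost with no scaling factors, with at least 1000 UMIs and with DESeq2. Of 8 papillary fibroblast genes, Col23a1 was higher and Ntn1 and Lrig1 lower.

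The largest fitted falls within mesenchyme were in genes with few or no UMIs in the members. Of 387 genes called lower, 13 had 0 UMIs in the members of both mice, and 24 had 0 or 1. Taken against the 3 counts that a count of 0 allows over both mice, Nxph1 was at least 3.09-fold lower, and stood at 48.5 and 112 CPM in ungated mesenchyme. The calls for Nxph1 and for the matrix metalloproteinase gene Mmp27, with 0 and 1 UMIs against 202 and 170 CPM (-4.88, or -2.71 in mouse 2 alone), were lost with DESeq2.

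Against whole skin, further genes passed that did not pass or were not tested within mesenchyme. Lingo2, a leucine-rich repeat membrane protein gene, stood at 263 and 315 CPM in the members against 3.93 and 8.92 CPM (5.40 ± 0.55). Scube3, a secreted protein gene known from the papilla, stood at 27.2 and 105 CPM against 0.693 and 1.87 CPM (5.32, edgeR adjusted p = 0.017). The WNT inhibitor Apcdd1 stood at 191 and 189 CPM against 71.7 and 51.8 CPM (1.38 ± 0.40), a call lost with at least 1000 UMIs and with DESeq2. The agouti gene a lay outside the rule for named genes and was picked after its values were seen. It stood at 99.9 and 147 CPM against 6.70 and 4.17 CPM (4.16 ± 0.83, or 4.86 in mouse 2 alone), and 9 of 71 and 5 of 37 members had a UMI. The matrix gene Lama2 stood at 2179 and 2391 CPM against 1044 and 988 CPM, and the glypican Gpc6 at 2343 and 2559 CPM against 1224 and 1034 CPM, both calls lost among nuclei of at least 1000 UMIs. Genes of other cell types were lower, among them the muscle gene Ttn at 1253 and 419 CPM against 4698 and 3655 CPM (-2.53 ± 0.23, or -3.44 in mouse 2 alone), the keratinocyte gene Dsp at 36.3 and 83.9 CPM against 109 and 234 CPM, and the macrophage gene Mrc1 at 63.6 and 83.9 CPM against 172 and 184 CPM. The Dsp and Mrc1 calls were lost with no scaling factors, with at least 1000 UMIs and with DESeq2. None of 7 cell cycle genes tested passed with edgeR or DESeq2, and none had an unadjusted p under 0.05 with edgeR.

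The same gate was counted in the wounded libraries as a description. It held 128 of 2385 nuclei (5.37%) and 103 of 4330 (2.38%), more than in intact skin. Gpc5 was detected in 93.0% and 83.5% of those nuclei and Grid1 in 60.2% and 66.0%, genes that span 1433 and 763 kb. At 5 or more gate genes there were 15 and 2 wounded nuclei, against 47 and 26 in intact skin. The 26 papilla markers outside the gate summed to 1333 and 1364 CPM in the gated wounded nuclei, against 1401 and 1684 CPM in the ungated ones. These markers were thus no higher in gated than in ungated nuclei of either wounded library, and no test between intact and wounded skin was made.

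**Figure D5:**
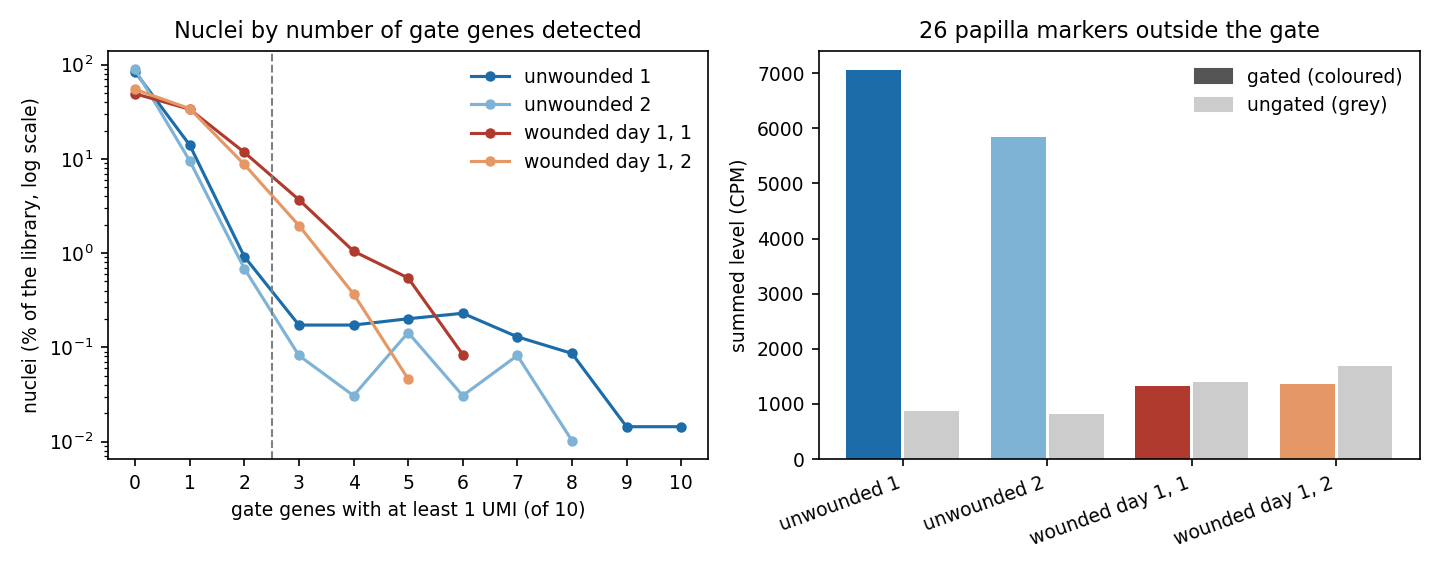
Left, percentage of each library's kept nuclei (log scale) by number of gate genes detected, with the threshold of 3 as a dashed line. Right, summed level in CPM of 26 dermal papilla markers outside the gate in gated (coloured) and ungated (grey) nuclei of each library; gated bars stand at 7055 and 5852 in unwounded skin and below the grey bars in the wounded libraries.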

How the data were processed

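Nuclear RNA was made into libraries with the Single Cell 3' v3.1 kit of 10x Genomics, according to the labels' protocols. The authors deposited raw counts of UMIs by gene and barcode. Cell Ranger 5.0.1 and the GRCm38 build are named in the submitters' processing notes. Counting of introns, the annotation release and the calling of barcodes were not given in the sources used here. Long genes gain detections where intronic reads count, and levels were not compared between genes. The 4 matrices listed the same 32285 genes, and 32235 matched GENCODE vM21 for coordinates.

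Group and replicate were read from the titles. Unwounded mice 1 and 2 are unwounded replicates 1 and 2. The members, gene lists and tests were chosen with earlier results of these data known. The rule for named genes took the 12 largest rises and 8 largest falls among called genes of at least 50 CPM in the higher set with the same direction in both mice, and from each list at most the 6 members with the lowest p. Gate genes, gene models, mitochondrial and ribosomal protein genes were left out of it, and defining markers could be named at any value.

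Nuclei of unwounded skin (8762743 and 6999384 UMIs) were clustered with scanpy 1.11.5 from 2000 variable genes without the gate genes, 30 principal components, 15 neighbours and Leiden resolution 1. A cluster took the name of a list when at least 3 and at least 40% of its markers stood at least 2-fold above the median cluster and that share led the next best list by at least 10 percentage points, a scoring set after the clusters were seen. Scrublet's automatic threshold marked 0 nuclei in both libraries, so the caller had not worked and doublets were kept. An alternative removed 388 and 764 nuclei of highest score, 3 of them members.

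Counts were summed per mouse and set and tested with edgeR 4.0.16 (quasi-likelihood, TMM, filterByExpr, R 4.3.3), with the mouse as a block because both sets come from the same animal. P-values were adjusted by Benjamini-Hochberg over all genes tested. Fold changes are log2, members over ungated nuclei. The value after ± is the size of the fold change divided by the square root of the edgeR F statistic. It is not a spread between mice. CPM are counts scaled to 1000000 UMIs per set, with no scaling factor. With 2 mice, p-values rest on 1 residual degree of freedom per gene plus the spread shared over genes. The unwounded libraries shared 29 barcodes, none of them in members of both. DESeq2 1.42.0, other filters, gates, depths and cluster resolutions were alternatives. The effect of leaving out a mouse was given as fold change only, since no residual degrees of freedom remain. Some items are not reported here.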

Additional observations from a re-analysis of the deposited data

Results flagged for a closer look

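The 26 dermal papilla markers outside the gate, taken as gated over ungated CPM, gave ratios of 8.12 and 7.21 in unwounded replicates 1 and 2 and of 0.951 and 0.810 in wounded replicates 1 and 2. The ratio lay above 1 in both unwounded libraries and below 1 in both wounded ones. The difference between intact and wounded skin was not tested. The median UMI count of all kept nuclei was 906 and 472 in the unwounded libraries and 364 and 315 in the wounded ones, and its part in the difference was not tested.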

How the results depend on the processing

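Of 81 genes named with values, all kept their direction and their side of the threshold without the replicate block, where the counts of genes called were 542 against whole skin and 743 within mesenchyme, beside 434 and 591 with it. DESeq2 called 125 and 178 genes (110 to 15 and 127 to 51, higher to lower) and lost 28 of the 81. Nuclei of at least 1000 UMIs gave 276 against whole skin and lost 13 of 76 testable. At Leiden resolution 0.5 no cluster was named dermal papilla-like, only 10 members were left in the mesenchyme and 26 genes were called. There the log2 differences changed sign for Spon1 (-7.14), Trps1 (-0.49), Fgf7 (-0.14), Fgfr1 (-0.88), Spred2 (-0.030), Bmp4 (-8.96), Axin2 (-0.55), Lgr6 (-6.88), Nr3c1 (-0.70), Ncam2 (-3.12) and Cacna1c (-0.20). The members left held 9207 and 6302 UMIs, so a count of 0 allows 326 and 476 CPM. The median over all genes was -7.11 at this resolution. Fitted values of that size, as for Spon1, Bmp4 and Lgr6, are therefore not measured falls. No other setting, and neither mouse left out, changed the sign of any of the 81. The cause of the DESeq2 and depth differences was not tested. The gated share was 1.94% and 1.06% at 2 gate genes, 0.675% and 0.266% at 5, 1.31% and 0.916% among nuclei of at least 500 genes, and 0.574% in mouse 2 after thinning to 500 UMIs. No scaling factors and the members of the dermal papilla-like cluster alone were settings chosen after seeing the data. The members' UMI sums limit falls to genes well above the level that a count of 0 allows.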
